A study of Bos taurus with 6 samples.

Results

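The genes described here are 10 transporters that carry amino acids across the plasma membrane of bovine embryonic stem cells: SLC1A4, SLC1A5, SLC3A2, SLC7A1, SLC7A3, SLC7A5, SLC7A11, SLC38A1, SLC38A2 and SLC43A2. They were chosen by name as transporters of glutamine, neutral amino acids, cationic amino acids and cystine, with earlier results of these data known. All 10 were found by symbol in the deposited TPM table and by Entrez gene identifier among the 19163 genes of the deposited count table. The cells were F7, a line of bovine embryonic stem cells from in vitro fertilized Holstein Friesian embryos, at 15 passages, and all libraries come from this single line. MC-F7 grew on embryonic fibroblasts of C57 mice (MEFs) treated with mitomycin C, which stops division but leaves the feeder alive, and MT-F7 grew on MEFs killed by fixation in methanol. All cells were kept in a customized mTeSR1 basal medium with fibroblast growth factor and the Wnt inhibitor IWR1, and were plated briefly on gelatin before RNA extraction, with only the floating cells taken, to reduce the carry-over of feeder cells. The study's methods give a medium change every day for MC-F7 and every other day for MT-F7, so the state of the feeder and the renewal of the medium cannot be told apart in this comparison. Each group had 3 libraries of 21958386 to 24933430 counts, and nothing says that the 3 came from separate cultures. The study's statistics section describes its data as means of at least 3 technical replicates, without saying whether this covers the RNA-seq libraries. The p values therefore measure only the spread between these libraries, which may be technical.

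Cells cannot make the essential amino acids and import them through carriers of the solute carrier (SLC) families. The exchanger SLC1A5 (ASCT2) and the sodium-coupled carriers SLC38A1 (SNAT1) and SLC38A2 (SNAT2) bring in glutamine, alanine, serine and other small neutral amino acids. The exchanger SLC1A4 (ASCT1) carries serine, alanine and threonine. SLC3A2 (4F2hc, CD98) carries no amino acid itself but takes light chains such as SLC7A5 (LAT1) and SLC7A11 (xCT) to the cell surface, where LAT1 exchanges glutamine for leucine and other large neutral amino acids and xCT exchanges glutamate for cystine. SLC43A2 (LAT4) is a uniporter of branched-chain amino acids, phenylalanine and methionine, and SLC7A1 (CAT1) and SLC7A3 (CAT3) carry arginine and lysine. Many of these genes are known targets of ATF4, the transcription factor that is translated when amino acids run short, and pluripotent stem cells are known for a strong dependence on glutamine.

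In MT-F7, transcripts of the main glutamine exchanger, of the LAT1 pair and of the main cationic carrier were lower than in MC-F7. SLC38A1 fell most, to 0.276-fold, SLC7A3 fell to 0.484-fold, SLC7A5 to 0.526-fold, SLC3A2 to 0.586-fold and SLC1A5 to 0.628-fold. Of the 10 members, 9 had enough counts for the test over all genes, and 5 of these passed at an adjusted p under 0.05 (edgeR's quasi-likelihood test with Benjamini-Hochberg adjustment over 13001 genes), all 5 lower in MT-F7. Among all tested genes 23.2% passed in either direction and 11.3% passed as lower in MT-F7. The members, and the lists described below, were chosen with earlier results of these data known, so these shares are not an unbiased comparison. The log2 fold changes of the 9 tested members ran from -1.86 to 0.24 with a median of -0.70, where the median over all tested genes was -0.0026. SLC1A4, SLC38A2, SLC7A1 and SLC43A2 did not pass, and SLC7A11 was too low to be tested. These are bulk libraries, in which fewer cells that use a gene and less RNA of it per cell cannot be told apart.

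**Figure D1:**
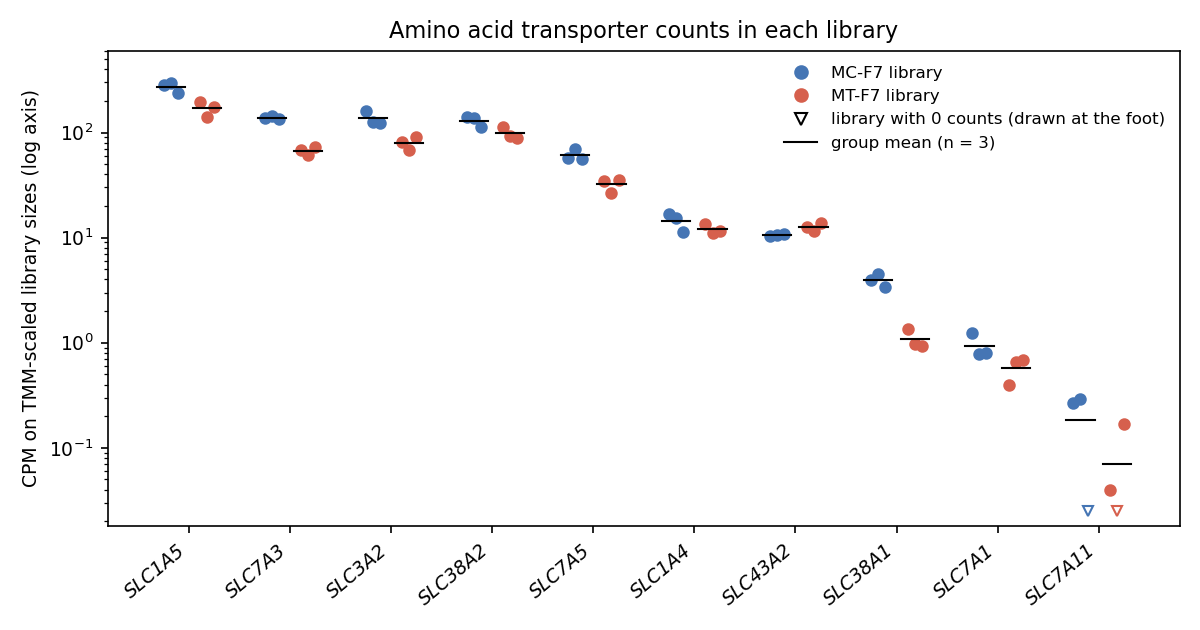
CPM (counts in every 1000000 of the library) of the 10 transporters in each library on TMM-scaled library sizes, on a log axis, with blue points for the 3 MC-F7 libraries, red points for the 3 MT-F7 libraries and a bar at each group mean. Open triangles at the foot stand for libraries with 0 counts. In SLC1A5, SLC7A3, SLC3A2, SLC7A5, SLC38A1 and SLC7A1 all red points lie below all blue points, in SLC43A2 all lie above, and in SLC38A2, SLC1A4 and SLC7A11 the groups overlap.

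The 3 libraries of MT-F7 all lay below the 3 of MC-F7 in 6 of the 9 tested members, and all lay above in 1 (SLC43A2). Over all tested genes the corresponding shares were 20.1% below and 19.9% above. Levels are given as CPM, a gene's counts in every 1000000 of the library, scaled by edgeR's TMM factors, and the log2 fold change is positive where MT-F7 is higher, with its standard error (SE) taken from the test statistic.

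The members differed widely in level. To set genes beside each other, the deposited TPM values, which hold counts divided by a length of each gene, were rescaled to 1000000 in each library, since the deposited columns are not. On this per-length scale SLC1A5 was the highest member, with a level of 116 in the MC-F7 libraries and 76.9 in the MT-F7 libraries. SLC3A2 (81.2 in MC-F7) and SLC7A3 (80.0) followed, and their MC-F7 libraries overlapped, while in MT-F7 SLC3A2 (50.1) lay above SLC7A3 (40.8) in every library. SLC38A2 and SLC7A5 came next, at 35.3 and 16.8 in MC-F7. SLC43A2 (4.36), SLC1A4 (4.24) and SLC38A1 (3.31) formed a low group in MC-F7 in which each overlapped the next, and in MT-F7 these 3 were apart at 5.43, 3.72 and 0.962. SLC7A1 and SLC7A11 were lowest in both groups, at 0.530 and 0.168 in MC-F7. The order of the 10 means was the same in both groups.

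Added up, the per-length levels of the 10 members were 360, 369 and 298 in the MC-F7 libraries and 237, 195 and 216 in the MT-F7 libraries. The groups did not overlap, and the geometric mean of MT-F7 was 0.633 times that of MC-F7. On the log2 sums the two-sided exact permutation p was 0.1, the smallest that 3 libraries against 3 can give. SLC1A5, SLC3A2 and SLC7A3 together took 81.1% ± 0.641 (SD, n = 3, as for all values with ± here) of this sum in the MC-F7 libraries and 77.6% ± 1.55 in the MT-F7 libraries. The share of SLC1A5 overlapped between the groups, at 33.9% ± 1.65 and 35.5% ± 2.01. The share of SLC7A3 was 23.5% ± 1.53 in MC-F7 and 18.9% ± 1.20 in MT-F7, while that of SLC38A2 was 10.3% ± 0.327 and 13.2% ± 1.64 and that of SLC43A2 1.29% ± 0.144 and 2.52% ± 0.182. In these last 3 genes the shares of the groups did not overlap.

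**Figure D2:**
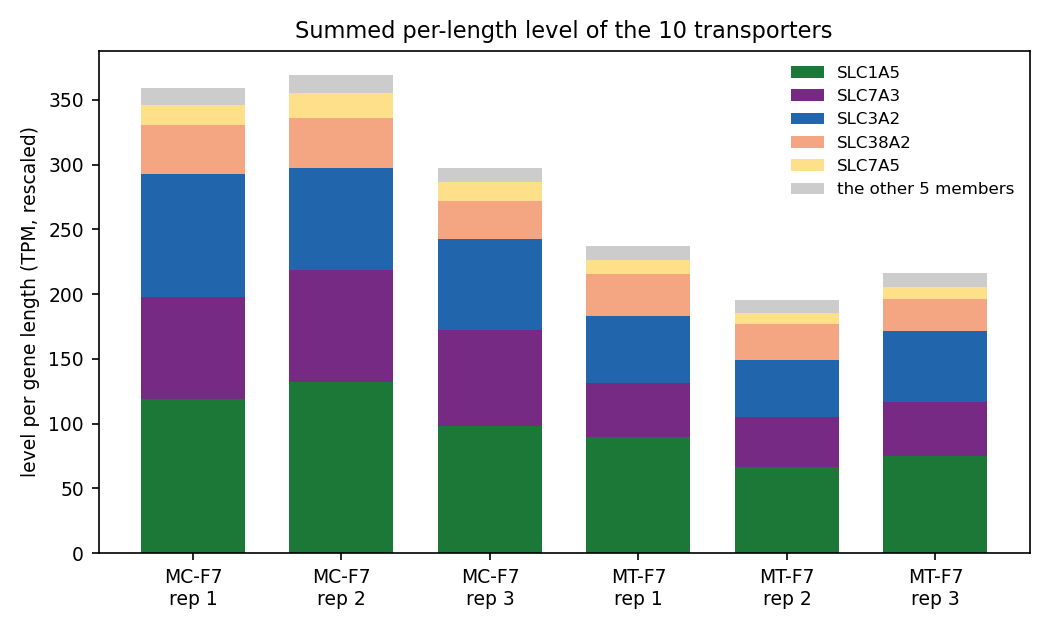
Stacked bars of the per-length level (deposited TPM rescaled to 1000000 per library) of the transporters in each of the 6 libraries, with the 5 lowest members joined in grey. The MC-F7 bars end between 298 and 369 and the MT-F7 bars between 195 and 237, and SLC1A5, SLC7A3 and SLC3A2 fill most of every bar.

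SLC1A5 (Entrez gene 282355), the exchanger through which much of the glutamine enters proliferating cells, had 281, 298 and 238 CPM in the MC-F7 libraries and 197, 141 and 175 CPM in the MT-F7 libraries. The lowest MC-F7 library was above the highest MT-F7 library. Its mean of 272 ± 30.8 CPM in MC-F7 fell to 171 ± 27.9 CPM, a log2 fold change of -0.67 (SE 0.167, adjusted p = 0.011). This call was the least firm of the 5. It passed in 4 of 6 fits with 1 library omitted in turn, and was lost without MC-F7 replicate 2 (adjusted p = 0.072) or MT-F7 replicate 2 (adjusted p = 0.069).

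SLC1A4 (326577), the closest relative of SLC1A5 among the members and a carrier of serine, alanine and threonine, had 16.7, 15.4 and 11.3 CPM in MC-F7 and 13.4, 11.2 and 11.6 CPM in MT-F7. MC-F7 replicate 3 lay within the range of the MT-F7 libraries, and the log2 fold change of -0.27 (SE 0.191, adjusted p = 0.35) did not pass. The level of SLC1A4 relative to SLC1A5 was compared within each library. The log2 ratio was -4.25 ± 0.165 in MC-F7 and -3.82 ± 0.138 in MT-F7, higher in every MT-F7 library by a mean of 0.43.

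SLC38A1 (527491), a sodium-coupled importer of glutamine, had the largest change of the members. It had 3.94, 4.48 and 3.41 CPM in MC-F7 and 1.36, 0.966 and 0.934 CPM in MT-F7. The highest MT-F7 library was far below the lowest MC-F7 library. With 73 to 108 counts per library in MC-F7 and 22 to 34 in MT-F7, the log2 fold change was -1.86 (SE 0.301, adjusted p = 7.5e-04), and it passed in each of the 6 fits that left out 1 library, with values from -2.06 to -1.76.

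SLC38A2 (338044), which carries the same amino acids and is induced in many cells when amino acids are withdrawn, was far more abundant. It had 139, 136 and 112 CPM in MC-F7 and 114, 93.5 and 89.5 CPM in MT-F7. MT-F7 replicate 1 was just above MC-F7 replicate 3, so the groups overlapped, and the log2 fold change of -0.39 (SE 0.158, adjusted p = 0.096) did not pass. Without MC-F7 replicate 3 it did (adjusted p = 0.044).

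SLC38A1 and SLC38A2 are next to each other among the protein-coding genes of the RefSeq annotation. Their log2 ratio was -5.04 ± 0.108 in MC-F7 and -6.52 ± 0.116 in MT-F7, a difference of -1.49 that every MT-F7 library showed. On the per-length scale SLC38A1 was at 0.0868 to 0.101 of the level of SLC38A2 in MC-F7 and at 0.0317 to 0.0366 in MT-F7.

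SLC3A2 (507107), the heavy chain, had 162, 127 and 123 CPM in MC-F7 and 81.6, 68.0 and 91.4 CPM in MT-F7, without overlap. Its mean was 137 ± 21.5 CPM in MC-F7 and 80.3 ± 11.8 CPM in MT-F7, and the log2 fold change of -0.77 (SE 0.169, adjusted p = 0.0054) passed in all 6 fits that left out 1 library. SLC7A5 (282369), the LAT1 light chain that needs SLC3A2 at the surface, had 57.8, 69.5 and 55.8 CPM in MC-F7 and 34.7, 26.4 and 35.2 CPM in MT-F7. These groups were also apart, with a log2 fold change of -0.93 (SE 0.168, adjusted p = 0.0017) that passed in all 6 of those fits.

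The balance between these partners did not shift by more than the spread between libraries. The log2 ratio of SLC7A5 to SLC3A2 was -1.16 ± 0.31 in MC-F7 and -1.33 ± 0.0803 in MT-F7, with groups that overlapped and a difference of -0.16. SLC7A8 (LAT2), which is also a light chain of SLC3A2, was at 14.1 ± 0.774 per length in the MC-F7 libraries and 10.8 ± 1.04 in the MT-F7 libraries, beside 16.8 ± 2.69 and 9.26 ± 1.16 for SLC7A5. Over the 6 genes known to encode light chains of SLC3A2 (SLC7A5, SLC7A6, SLC7A7, SLC7A8, SLC7A10 and SLC7A11), the summed per-length level was 34.2 ± 3.62 in MC-F7 and 23.0 ± 2.34 in MT-F7. SLC3A2 was at 2.90, 2.04 and 2.23 times this sum in MC-F7 and at 2.11, 2.18 and 2.25 times in MT-F7. The groups overlapped in this ratio (two-sided exact permutation p = 0.8).

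SLC7A11 (524078), the cystine and glutamate exchanger, was nearly absent from the counts. The MC-F7 libraries held 6, 7 and 0 reads of it and the MT-F7 libraries 1, 0 and 4. Against a limit of detection of 3 counts (0.116 to 0.140 CPM), only 2 MC-F7 libraries and 1 MT-F7 library were above it. With the counts of each group added up (13 and 5), MT-F7 had 0.351 times the MC-F7 level, with an exact 95% interval of 0.0981 to 1.05, which covers counting error only. A difference between the groups was not detectable at this depth. In the fit that kept all genes with at least 1 count, its adjusted p was 0.50.

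SLC43A2 (511955), the LAT4 uniporter, was the member that lay higher in MT-F7. It had 10.4, 10.7 and 10.9 CPM in MC-F7 and 12.6, 11.5 and 13.8 CPM in MT-F7. The groups were apart, but the log2 fold change of 0.24 (SE 0.170, adjusted p = 0.34) did not pass. SLC7A5 and SLC43A2 carry overlapping sets of large neutral amino acids by exchange and by uniport. The log2 ratio of SLC7A5 to SLC43A2 was 2.51 ± 0.177 in MC-F7 and 1.34 ± 0.132 in MT-F7, a difference of -1.17 that every MT-F7 library showed. On the per-length scale SLC7A5 was at 3.42 to 4.36 times SLC43A2 in MC-F7 and at 1.54 to 1.85 times in MT-F7.

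SLC7A3 (539065), the CAT3 carrier of arginine and lysine, had the lowest adjusted p of the members. It had 138, 144 and 134 CPM in the MC-F7 libraries and 67.5, 60.8 and 72.5 CPM in the MT-F7 libraries. Both groups were tight and far apart. The mean of 138 ± 5.04 CPM in MC-F7 fell to 66.9 ± 5.91 CPM, a log2 fold change of -1.05 (SE 0.143, adjusted p = 2.2e-04), and the value stayed between -1.12 and -0.98 when any 1 library was left out.

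SLC7A1 (539465), the CAT1 carrier that serves most tissues for the same amino acids, was close to the limit of detection in both groups. The MC-F7 libraries held 28, 19 and 17 reads of it and the MT-F7 libraries 10, 17 and 16, or 1.24, 0.788 and 0.795 CPM and 0.398, 0.657 and 0.679 CPM. The libraries did not overlap, but with so few counts the log2 fold change of -0.70 had an SE of 0.449 and did not pass (adjusted p = 0.29). SLC7A1 was at 0.00536 to 0.0106 of the per-length level of SLC7A3 over the 6 libraries, so SLC7A3 gave nearly all of the CAT transcripts among the members. The log2 ratio of the pair, -7.23 ± 0.382 in MC-F7 and -6.89 ± 0.456 in MT-F7, overlapped between the groups.

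The 5 pairs compared within libraries were also tested by an exact two-sided permutation over the 6 libraries. The 3 pairs without overlap (SLC1A4 with SLC1A5, SLC38A1 with SLC38A2, SLC7A5 with SLC43A2) reached an exact permutation p = 0.1, which is the smallest that this design allows, or 0.167 after Benjamini-Hochberg adjustment over the 5 pairs. SLC7A1 with SLC7A3 gave an exact permutation p = 0.3 (adjusted 0.375) and SLC7A5 with SLC3A2 gave 0.6. The pair of SLC7A11 with SLC3A2 was not compared, because libraries with 0 counts give no ratio.

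A list of 36 other plasma membrane and lysosomal amino acid transporters was examined beside the members. Of these, 35 were in the count table and 25 had enough counts to be tested. At an adjusted p under 0.05, 0 were higher and 2 were lower in MT-F7 (8.0% called, beside 23.2% of all tested genes), with a median log2 fold change of -0.10. SLC38A5 (SNAT5), a carrier of glutamine, asparagine and serine, had 71.3, 70.6 and 67.3 CPM in MC-F7 and 46.7, 28.4 and 34.6 CPM in MT-F7, a log2 fold change of -0.93 (SE 0.182, adjusted p = 0.0028). On the per-length scale SLC38A5 was at 39.1 ± 2.46 in MC-F7, beside 35.3 ± 5.05 for SLC38A2, and at 21.7 ± 5.55 in MT-F7, beside 28.5 ± 4.31 for SLC38A2, and the ranges of these genes overlapped in both groups. Within libraries SLC38A5 lay above SLC38A2 in each of the 3 MC-F7 libraries and below it in each of the 3 MT-F7 libraries, a difference that was not tested. SLC7A8 fell from a mean of 46.2 ± 1.18 CPM to 33.7 ± 4.56 CPM, a log2 fold change of -0.46 (SE 0.154, adjusted p = 0.0498). This call sat at the edge of the threshold and was lost without any 1 library other than MT-F7 replicate 3 (adjusted p = 0.054 to 0.21). The other 23 did not pass. Of all 236 tested genes of the SLC families outside the members, 21 were higher and 34 lower in MT-F7 (23.3% called, 14.4% as lower).

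**Figure D3:**
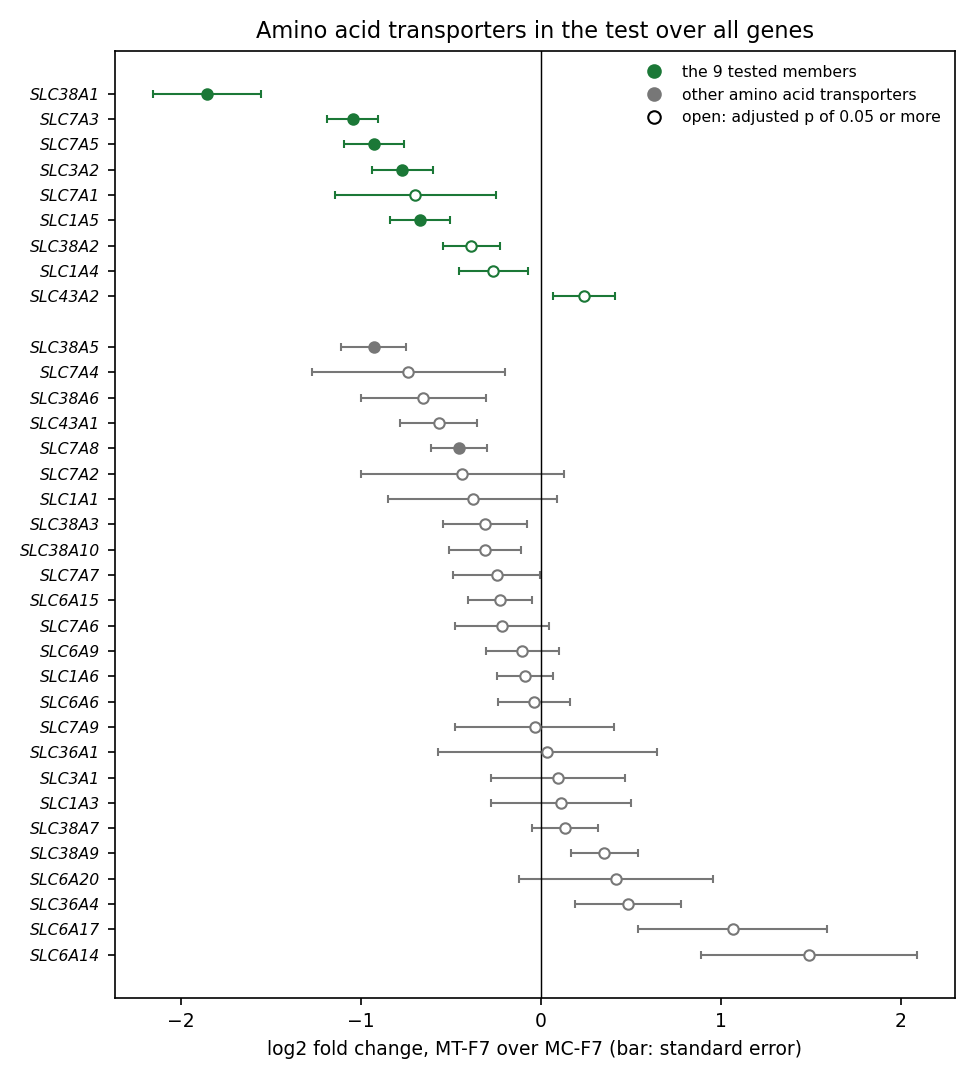
Log2 fold change of MT-F7 over MC-F7 with its standard error for the 9 tested members (green) and 25 other tested amino acid transporters (grey), filled where the adjusted p was under 0.05. The 5 filled members lie between -1.86 and -0.67, and the filled grey points are SLC38A5 at -0.93 and SLC7A8 at -0.46.

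Genes of the response to amino acid shortage, which share the regulator ATF4 with many of the transporters, were examined next. Of 20 tested genes, 2 were higher and 7 lower in MT-F7 (45.0% called, beside 23.2% of all tested genes), and the median log2 fold change was -0.33. ATF4 itself fell from a mean of 583 ± 62.7 CPM to 389 ± 24.7 CPM, a log2 fold change of -0.58 (SE 0.154, adjusted p = 0.015), which was lost without MT-F7 replicate 1 (adjusted p = 0.081). ASNS, which makes asparagine from aspartate with glutamine as nitrogen donor, had 500.1, 401 and 379 CPM in MC-F7 and 181, 196 and 126 CPM in MT-F7, a log2 fold change of -1.35 (SE 0.192, adjusted p = 2.9e-04). CHAC1, which degrades glutathione, and TRIB3, a pseudokinase induced by ATF4, had log2 fold changes of -1.27 (adjusted p = 0.0019) and -1.61 (adjusted p = 0.015). TRIB3 was lost without MC-F7 replicate 2 (adjusted p = 0.061) or MT-F7 replicate 1 (adjusted p = 0.067). STC2, a secreted glycoprotein that also responds to low oxygen, fell most, from 81.4 ± 16.2 to 5.50 ± 1.80 CPM. The other lower genes were EIF4EBP1, a brake on translation, at -0.78 and SHMT2, which makes glycine in mitochondria, at -0.74. The higher genes were PSAT1 of serine synthesis, with a log2 fold change of 1.08 that was lost without MT-F7 replicate 1 (adjusted p = 0.057) or 2 (0.051), and SESN2, an inhibitor of mTORC1 that binds leucine, with 0.51. SESN2 was lost without any 1 library other than MT-F7 replicate 3 (adjusted p = 0.052 to 0.16). EIF2AK4 (GCN2), the kinase that senses uncharged tRNA, had a log2 fold change of -0.18 (adjusted p = 0.50).

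The enzymes that use glutamine and glutamate gave 1 higher and 4 lower genes of 23 tested, or 21.7% called beside 23.2% of all tested genes, with a median log2 fold change of -0.068. GLUL, which makes glutamine, was at 158 ± 20.8 and 158 ± 14.4 CPM (log2 fold change -0.001, SE 0.156, adjusted p = 0.997). The groups overlapped. The genes that passed include enzymes on the route from glutamate to proline. ALDH18A1 and PYCR1, which make proline, had log2 fold changes of -1.40 (adjusted p = 1.8e-04) and -0.62 (adjusted p = 0.0081), and PRODH, which breaks it down, had 0.82 (adjusted p = 0.010, or 0.065 without MC-F7 replicate 2). PPAT, the first enzyme of purine synthesis, which takes its nitrogen from glutamine, had -0.64 (adjusted p = 0.010), and the aspartate aminotransferase GOT1 had -0.60, which was lost without MC-F7 replicate 1 (adjusted p = 0.076), MC-F7 replicate 2 (0.092) or MT-F7 replicate 2 (0.0502).

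Of 15 tested genes of cystine use and glutathione, 0 were higher and 5 lower in MT-F7 (33.3% called, beside 23.2% of all tested genes), with a median log2 fold change of -0.21. GCLC, the catalytic subunit of the enzyme that joins cysteine to glutamate, had 64.8, 67.5 and 70.2 CPM in MC-F7 and 33.9, 34.2 and 35.3 CPM in MT-F7. The log2 fold change was -0.97 (SE 0.140, adjusted p = 3.3e-04). CBS, which starts the synthesis of cysteine from homocysteine, fell with a log2 fold change of -0.95 (adjusted p = 5.4e-04). The thioredoxin reductase TXNRD1 fell by 0.76 and the haem oxygenase HMOX1 by 2.05 on the log2 scale, and the glutathione reductase GSR by 0.64. The call of GSR was lost without MC-F7 replicate 1 (adjusted p = 0.072), MC-F7 replicate 2 (0.12) or MT-F7 replicate 2 (0.072).

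Enzymes that act on the substrates of SLC7A5, SLC43A2 and the cationic carriers gave 3 higher and 1 lower gene of 18 tested, or 22.2% called beside 23.2% of all tested genes, with a median log2 fold change of -0.15. BCAT1 and BCAT2, the cytosolic and mitochondrial aminotransferases of the branched-chain amino acids, were both higher in MT-F7. The other branched-chain genes of the list did not pass and lay below 0. Their log2 fold changes were -0.41 for DBT (adjusted p = 0.14), -0.22 for BCKDHA (0.42), -0.14 for BCKDHB (0.67) and -0.02 for BCKDK (0.94). BCAT1 had 27.5, 24.6 and 19.4 CPM in MC-F7 and 47.1, 47.6 and 33.1 CPM in MT-F7, a log2 fold change of 0.84 (SE 0.191, adjusted p = 0.0068), and BCAT2 had 0.79 (SE 0.201, adjusted p = 0.012, or 0.058 without MC-F7 replicate 2). ASL, which releases arginine, rose by a log2 fold change of 0.56 (adjusted p = 0.023) and AZIN1, an inhibitor of antizyme in polyamine synthesis, fell by 0.54 on the log2 scale (adjusted p = 0.031). ASL was lost without MC-F7 replicate 1 or 2 or MT-F7 replicate 2 or 3 (adjusted p = 0.054 to 0.11), and AZIN1 without MC-F7 replicate 1 or 2 or MT-F7 replicate 1 or 3 (0.059 to 0.10).

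Genes through which mTORC1, the growth kinase, senses amino acids gave 2 higher and 4 lower genes of 25 tested, or 24.0% called beside 23.2% of all tested genes, with a median log2 fold change of 0.13. RRAGD, a Rag GTPase, fell from 187 ± 28.5 to 103 ± 8.10 CPM, and CASTOR1, the arginine sensor, from 45.1 ± 3.89 to 27.3 ± 2.25 CPM. Their log2 fold changes were -0.87 (adjusted p = 0.0017) and -0.72 (adjusted p = 0.0044). RRAGA fell by 0.70 on the log2 scale (adjusted p = 0.029) and SESN1 by 0.62. RRAGA was lost without MC-F7 replicate 1 or 2 or MT-F7 replicate 1 or 3 (adjusted p = 0.056 to 0.10), and SESN1 without any 1 library other than MC-F7 replicate 3 (0.076 to 0.17). SESN3 rose from a mean of 0.448 ± 0.226 CPM to 1.89 ± 0.168 CPM, a log2 fold change of 2.05 (SE 0.445, adjusted p = 0.0052), and FLCN, which acts on RRAGC and RRAGD, rose by 0.67, which was lost without MC-F7 replicate 2 (adjusted p = 0.068). MTOR was at 0.13 (adjusted p = 0.71).

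**Figure D4:**
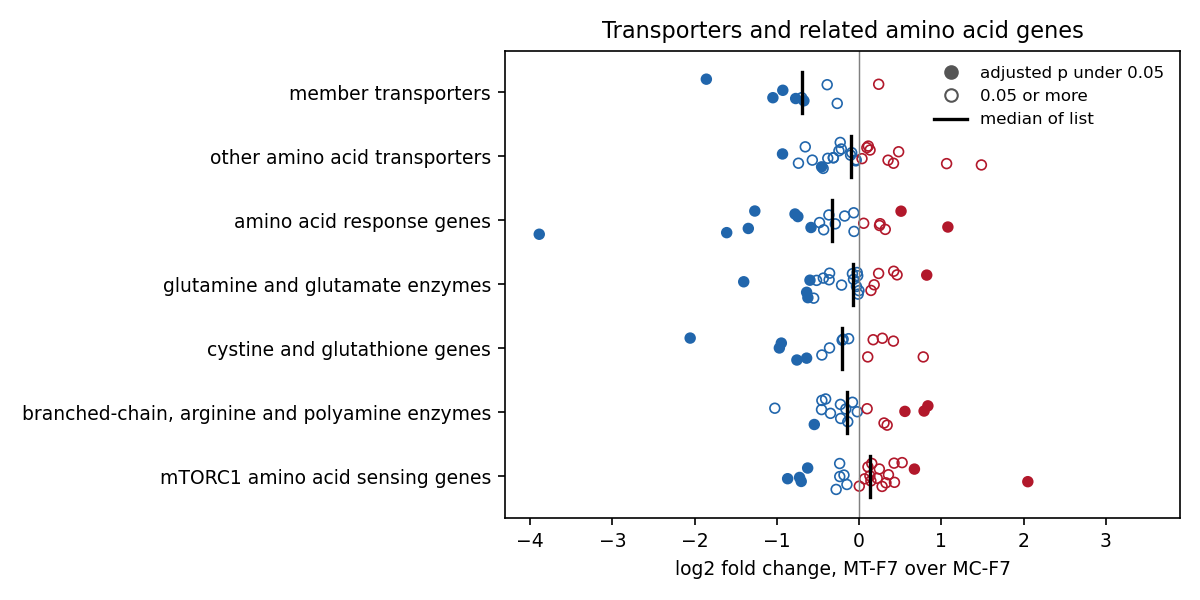
Log2 fold change of MT-F7 over MC-F7 for each tested gene of the 10 transporters and of 6 lists of related genes, with blue below 0, red above 0, filled points for an adjusted p under 0.05 and a black bar at the median of each list. The members have the lowest median (-0.70), the mTORC1 list the highest (0.13), and STC2 at -3.89 is the point farthest left.

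Beside the transporters, the levels of several cell type markers differed between the groups. POU5F1 and NANOG, which define pluripotent cells, were well above the limit of detection in every library, POU5F1 with 486 CPM or more and NANOG with 9.47 CPM or more. Of 8 tested pluripotency markers, 0 were higher and 6 lower in MT-F7 (75.0% called, beside 23.2% of all tested genes). SALL4 (adjusted p = 0.29) and PRDM14 (0.67) did not pass. Of the lower markers, LIN28A was lost without MC-F7 replicate 2 (adjusted p = 0.065), MT-F7 replicate 1 (0.093) or MT-F7 replicate 2 (0.087). DPPA4 had few counts, with 37, 45 and 32 in the MC-F7 libraries and 4, 5 and 4 in the MT-F7 libraries. The summed level of the 8 markers was 974 to 1612 CPM in MC-F7 and 595 to 656 CPM in MT-F7. POU5F1 gave most of this sum (1456 of 1612 CPM in MC-F7 replicate 1). Of 20 fibroblast markers, none was at 0 in all libraries and 19 were tested. Of these, 5 were higher and 1 lower in MT-F7 (31.6% called, beside 23.2% of all tested genes). The summed level of the 20 fibroblast markers was 483 to 572 CPM in MC-F7 and 774 to 826 CPM in MT-F7. COL1A1, FN1, COL5A1 and FBLN2 gave most of it, and of these FN1 and COL5A1 passed as higher and COL1A1 (adjusted p = 0.094) and FBLN2 (0.31) did not pass. The other higher markers were COL3A1, POSTN and PDGFRB, and the lower one was TWIST2. POSTN was lost without MT-F7 replicate 2 (adjusted p = 0.059), and PDGFRB without MC-F7 replicate 1 (0.052), MC-F7 replicate 2 (0.065) or MT-F7 replicate 3 (0.058). DCN, LUM, THY1, PDGFRA, COL1A2, COL6A3 and PRRX1 did not pass. Reads of mouse feeder cells are not marked in these counts, and the study gives a lower rate of alignment to the bovine genome for MC-F7 than for MT-F7. How much feeder RNA each group held was not measured here. The part of these differences in the levels of the transporters was not tested. Transcripts encoded in mitochondria made up 21.5% ± 6.16 of the MC-F7 counts and 23.0% ± 4.97 of the MT-F7 counts, and without them no tested member's log2 fold change moved by more than 0.0004.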

How the data were processed

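RNA-seq libraries of MC-F7 and MT-F7 (3 each) were grouped by their titles. According to the methods and the submitters' processing notes, the authors cleaned the reads, mapped these to an Ensembl Bos taurus genome with HISAT2 2.0.5 and counted them with featureCounts 1.5.0-p3. The genome build is not given in the sources used here, so no coordinates are given. The authors deposited raw counts per Entrez gene and a second table that they call TPM. The deposited TPM columns add up to 154763 to 164394 after repeated Ensembl identifiers were dropped, and were rescaled to 1000000. Symbols were joined by Entrez identifier from the RefSeq gene table of ARS-UCD2.0 (19074 of 19163 matched).

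Counts were filtered with filterByExpr (minimum count 10, minimum total 15), scaled by TMM and compared with the quasi-likelihood test of edgeR 4.0.16 (R 4.3.3), without a block and two-sided, with Benjamini-Hochberg adjustment over 13001 genes. The SE is the absolute log2 fold change divided by the square root of F. Exact permutation tests were run in Python 3.11.15. Alternatives were RLE factors, no scaling factors, DESeq2 1.42.0, edgeR's likelihood ratio test, other filters, a block for the replicate number, omission of each library in turn, a threshold of 1.5 on the absolute log2 fold change with unadjusted p below 0.05, removal of mitochondrial genes, and limma 3.58.1 on log2(TPM + 1) and log2(TPM + 0.1). The test steps were tested on simulated data. The members and lists were chosen with earlier results of these data known. Named from the lists were all other transporters that passed, up to 4 passing genes with the largest change in each further list, and ATF4, ASNS and GLUL. A further gene of that rule is not reported here. PSAT1, SESN2, EIF2AK4, EIF4EBP1, SHMT2, GOT1, GSR, SESN1, FLCN, MTOR, DBT, BCKDHA, BCKDHB and BCKDK were named after their values were seen. So were the pluripotency and fibroblast markers. CEBPB and SLC7A13 of the lists were not analysed here, nor were SOX2, LIN28B, TDGF1 and UTF1 of the pluripotency markers.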

Additional observations from a re-analysis of the deposited data

How the results depend on the processing

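Over the alternatives with a filter, scaling or test of their own and the fits that left out 1 library, 4 to 6 members passed, all of them lower in MT-F7, and no tested member changed direction. SLC1A5 did not pass with limma on log2(TPM + 1) or log2(TPM + 0.1) (adjusted p = 0.056 and 0.052). With an absolute log2 fold change over 1.5 and an unadjusted p under 0.05, 1 member passed (SLC38A1), as did 856 of all genes and 0, 2, 1, 0, 1 and 0 genes of the other transporters, the response, mTORC1, glutamine, cystine, and branched-chain and arginine lists. With the replicate number as a replicate block the count over all genes was 4674, that of members 6 (SLC38A2 was added), of the glutamine list 11 and of the branched-chain and arginine list 9. Deviations of libraries with the same number correlated at 0.167, 0.0707 and 0.505, the last being the highest of all pairs across the groups. MC-F7 replicate 1 correlated best with MT-F7 replicate 2 (0.368). The labels give only the replicate number, and whether libraries with the same number share a batch was not tested. Without 1 library, the count was 1914 (without MC-F7 replicate 2) to 3093 over all genes, 4 to 6 for members, 1 to 4 for the other transporters, 5 (without MT-F7 replicate 1) to 10 for the response list, 3 (without MC-F7 replicate 2) to 8 for mTORC1, 3 (without MC-F7 replicate 2) to 9 (without MC-F7 replicate 3) for glutamine, 4 to 5 for cystine and 1 (without MC-F7 replicate 2) to 5 for the branched-chain and arginine list. It fell to 2 in the last list without MC-F7 replicate 1. The other transporters gave 4 calls by the likelihood ratio test and without MT-F7 replicate 3, and 1 with library size only, with either other count filter, with each limma fit, without mitochondrial genes and without MC-F7 replicate 3, MT-F7 replicate 1 or MT-F7 replicate 2, where SLC7A8 was lost. The mTORC1 list gave 3 calls in limma with a mean TPM of at least 1. GLUL, near 0, changed sign and was at 0.014 with library size only, 0.0033 in DESeq2, 0.0041 with all genes, 0.0025 with 10 or more counts per library, 0.0037 with the replicate block, 0.083 and 0.085 in limma and -0.11 to 0.062 without 1 library. The causes were not tested. SLC7A1 and SLC7A11 had few counts.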
